A study of Homo sapiens with 9 samples.

Results

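The metallothioneins are a family of small, cysteine-rich proteins that hold zinc, copper and cadmium ions. The members described here are MT1A, MT1B, MT1E, MT1F, MT1G, MT1H, MT1L, MT1M, MT1X and MT2A, chosen by name as every probe of the array whose gene name is one of these 10. They have 13 of the 50599 probes, with 2 probes each for MT1E, MT1H and MT1X and 1 for each of the other members. MT1L is annotated as a transcribed pseudogene and the other members as protein-coding genes.

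Metallothionein genes lie side by side in a cluster on the long arm of chromosome 16. Their best known inducers are metals, which act through the zinc-sensing transcription factor MTF1 and short promoter sequences called metal response elements, and they also respond to glucocorticoids and to oxidative stress. Metal-free metallothionein takes up zinc, and the exporter SLC30A1, another MTF1 target, moves zinc out of the cell. MT1G is known as a gene that is silenced together with promoter methylation in several tumour types.

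Total RNA from RKO, a line of colorectal cancer cells, was hybridized in 1 colour to 9 Agilent arrays of human gene expression. The 4 siRNA groups had 2 arrays each. Cells of the siCONT group received a control siRNA for 72 h and then ethanol (mock) for 24 h, and siUHRF1 cells received siRNA against UHRF1, a protein that recruits the maintenance DNA methyltransferase DNMT1, with the same mock treatment. The siCONT + TSA and siUHRF1 + TSA groups received the same siRNAs followed by 300 nM trichostatin A (TSA), an inhibitor of histone deacetylases, for 24 h. Replicate 1 of both UHRF1-depleted groups carried siUHRF1-1 and replicate 2 carried siUHRF1-2, so their spread holds the difference between 2 siRNAs. A single array held RNA of cells given 1 µM 5-aza-2'-deoxycytidine (5-aza-dC), which blocks DNA methyltransferases, for 72 h without siRNA. Its slide and its scan differed from those of the siRNA arrays, so for 5-aza-dC the slide, the scan, the missing siRNA and the drug cannot be told apart. On the slide of the siRNA arrays, mock and TSA samples filled different rows and siCONT and siUHRF1 samples different columns, so slide position and treatment cannot be told apart either. For the siCONT groups no source used here states that replicates came from separate cultures, so their part of the spread behind the p-values may be technical.

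UHRF1 itself was lower by 2.47 ± 0.14 (SE) on the log2 scale in siUHRF1 than in siCONT, with an adjusted p of 0.00238 from limma. It was lower by 3.35 ± 0.14 in siUHRF1 + TSA than in siCONT + TSA (adjusted p = 1.32e-04). Of 9 epithelial markers, KRT8, KRT18 and CDX2 were above background on all 9 arrays, and CDH1, VIL1, CDH17 and LGALS4 on none.

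The probes are 60 bases long, and their sequences show how alike the family is. The files place them on chromosome 16 of hg19, between base 56643332 (MT2A) and base 56718021 (MT1X), in the order MT2A, MT1L, MT1E, MT1M, MT1A, MT1B, MT1F, MT1G, MT1H, MT1X. MT1G alone is on the minus strand. The MT1A probe spans 604 bases of the genome (chr16:56673205-56673808) and the MT1H probe A_33_P3315314 spans 386 (chr16:56704448-56704833), so both cross an intron, whereas the other 11 probes lie in 1 piece. The MT1A probe, this MT1H probe and the MT1X probe A_33_P3350056 each have a reading frame with no stop codon in which 8, 8 and 7 codons are TGC or TGT, the cysteine codons. They are shown because they share the longest runs between different genes. Whether they lie in the coding part was not checked against an annotation. Capitals mark the longest run that each shares with another of these 3.

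MT1A: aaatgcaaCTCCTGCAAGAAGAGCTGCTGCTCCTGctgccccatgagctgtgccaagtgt

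MT1H (A_33_P3315314): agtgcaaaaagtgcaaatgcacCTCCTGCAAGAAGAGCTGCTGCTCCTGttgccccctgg

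MT1X (A_33_P3350056): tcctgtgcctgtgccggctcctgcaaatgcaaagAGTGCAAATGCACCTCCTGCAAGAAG

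The MT1A and MT1H probes share a run of 27 bases, and the MT1H and MT1X probes share one of 26. Among the 78 pairs of member probes, 3 shared a run of 20 bases or more, the last being the overlapping MT1E probes with 28. No probe outside the family shared such a run with a member. The file itself assigns the MT1A probe also to the MT1M transcript, the MT1X probe A_33_P3350056 also to MT1B, and the MT1E probe A_21_P0000671 also to MT1M and the pseudogene MT1JP. For these 3 probes the transcripts of the named genes cannot be told apart, and how much other family members add to the signal of the remaining probes was not tested.

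The MT1F probe (chr16:56693077-56693136) and the other MT1X probe, A_33_P3236868 (chr16:56717962-56718021), are shown because, after MT1G, they had the largest differences between siUHRF1 + TSA and siCONT + TSA. They agree at 49 of 60 aligned bases. The first 30 bases of each are given, with the 5 bases that differ in capitals.

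MT1F: tgccaggacaAcCTtTctcCcagatgtaaa

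MT1X (A_33_P3236868): tgccaggacaGcTGtGctcTcagatgtaaa

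The MT1G probe (chr16:56700693-56700752, minus strand) overlaps in sequence with the end of the second MT1H probe, A_33_P3368313 (chr16:56704902-56704961). They are shown because one of them was above background on 3 arrays and the other on none. Their 22 aligned bases differ at 2 positions, given in capitals, and the longest run that the MT1G probe shared with any member probe was 10 bases.

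MT1G: cCcgtaaaatcTaggatttttt

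MT1H (A_33_P3368313): cAcgtaaaatcCaggatttttt

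RefSeq's promoter table (GRCh38.p14) holds 4 of the members: MT2A, MT1B, MT1H and MT1X. It gives 250 bases before and 50 after each gene's start. The core of the metal response element was searched as TGCACNC or TGCGCNC on both strands. The windows of MT2A and MT1H held 8 cores each, as many as 0.02% of the 35116 promoters in the table or fewer had. MT1X held 4 cores and MT1B held 3, numbers reached by 0.60% and 2.3% of promoters, and 29.6% of all promoters held at least 1 core. MT2A and MT1X are printed because these were the member called with TSA alone and a member called with TSA plus UHRF1 depletion. The bases before the start are given, with the cores in capitals, 7 in MT2A and 4 in MT1X, none overlapping.

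MT2A (chr16:56608334-56608583, plus strand, GRCh38.p14): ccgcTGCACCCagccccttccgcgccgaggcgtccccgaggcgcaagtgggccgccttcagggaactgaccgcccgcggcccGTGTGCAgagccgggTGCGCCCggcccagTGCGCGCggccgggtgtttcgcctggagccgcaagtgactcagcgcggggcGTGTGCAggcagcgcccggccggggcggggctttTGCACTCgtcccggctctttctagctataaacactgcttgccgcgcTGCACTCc

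MT1X (chr16:56682220-56682469, plus strand, GRCh38.p14): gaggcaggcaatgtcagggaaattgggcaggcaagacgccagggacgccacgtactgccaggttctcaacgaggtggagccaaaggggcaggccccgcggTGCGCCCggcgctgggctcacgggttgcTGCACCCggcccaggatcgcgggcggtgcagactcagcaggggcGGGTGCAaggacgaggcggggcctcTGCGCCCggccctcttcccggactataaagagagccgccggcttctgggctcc

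CG dinucleotides, the sites of DNA methylation, numbered 37 in the MT2A window, 26 in MT1X, 25 in MT1H and 7 in MT1B. Shares of 11.3%, 30.1%, 32.0% and 63.2% of all promoters held as many or more. A match to these letters is a description of the window and not a measured binding site.

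Of the 13 member probes, 11 were above background on all 9 arrays. MT1G was above background on 3 arrays alone, those of siUHRF1 + TSA and 5-aza-dC, and the MT1H probe A_33_P3368313 was above background on no array. The other MT1H probe was above background on every array, so the 2 probes of this gene did not agree. No member spot was saturated or marked as an outlier. Levels below are log2 signals relative to the 75th percentile of their own array. A probe was tested where every array of at least 1 group was above background. For 5-aza-dC its single array also counted as a group. The 12 probes that passed exclude that MT1H probe. MT1G passed only through groups where it was high, siUHRF1 + TSA and, in the fit for 5-aza-dC, also the 5-aza-dC array. Its calls are therefore a description, and counts and medians are given over the 11 probes measured on every array, with MT1G apart.

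**Figure D1:**
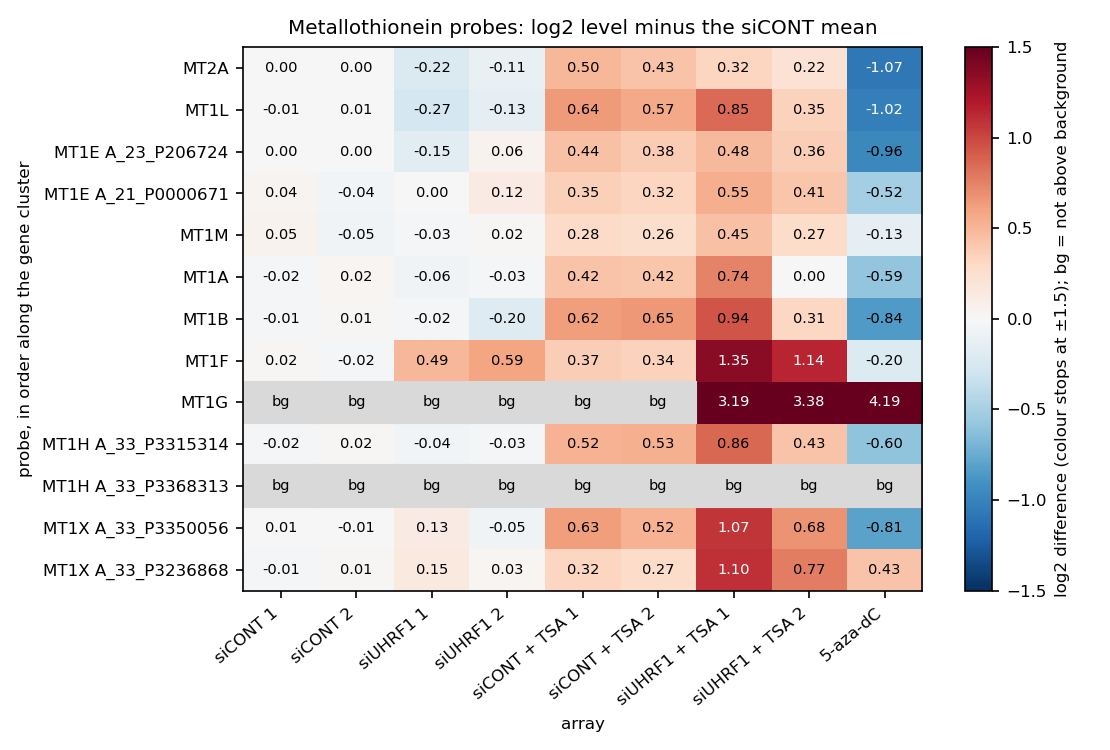
Log2 level of each metallothionein probe (rows, in order along the gene cluster) on each array (columns), minus the mean of the siCONT arrays; colour stops at ±1.5 and grey cells marked bg were not above background. The 11 probes that were above background on every array sat above the siCONT mean on both siCONT + TSA arrays. With TSA alone, 58.0% of all probes tested had a log2 fold change above zero. MT1G was measured on the siUHRF1 + TSA arrays and the 5-aza-dC array alone.

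After UHRF1 depletion alone, none of the 11 probes, nor MT1G, was called altered at an adjusted p below 0.05, and 0.556% of all 23730 probes tested were called. The median log2 fold change of the members was -0.04, beside -0.0039 over all probes. A single member, MT1F, had an unadjusted p below 0.05. Its 2 siUHRF1 arrays were 0.49 and 0.59 above the siCONT mean and its siCONT arrays 0.02 above and 0.02 below it, a fold change of 0.54 ± 0.11 (SE) with an adjusted p of 0.150. The other members lay between -0.20 ± 0.17 for MT1L and 0.09 ± 0.13 for MT1X (A_33_P3236868). MT2A stood 0.22 and 0.11 below the siCONT mean on the siUHRF1 arrays (-0.16 ± 0.10, adjusted p = 0.725).

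With TSA alone 1 of the 11 probes passed the test, MT2A, while 10.4% of all probes were called. All 11 had a log2 fold change above zero, beside 58.0% of all probes tested. The median log2 fold change was 0.42 for the 11 probes against 0.07 over all probes. MT2A, the most widely expressed member of the family, was 0.50 and 0.43 above the siCONT mean on the siCONT + TSA arrays, and its siCONT arrays lay within 0.01 of that mean. Its log2 fold change was 0.46 ± 0.10 (SE) with an adjusted p of 0.0343. The others ranged from 0.27 ± 0.10 for MT1M to 0.64 ± 0.20 for MT1B (adjusted p = 0.0994). MT1G was below background in both groups. MT1L (0.60 ± 0.17), MT1X (A_33_P3350056; 0.58 ± 0.15) and MT1H (A_33_P3315314; 0.53 ± 0.15) had adjusted p-values of 0.0754, 0.0627 and 0.0734. The reference gene ACTB shifted by a like amount, 0.47 ± 0.14 (adjusted p = 0.0840), and GAPDH by 0.08 ± 0.10. The MT2A call was lost when any single array of siCONT or siCONT + TSA was left out. Calls over all probes then fell steeply as well. Over all alternatives the MT2A log2 fold change lay between 0.22 and 0.50. Under scaling on the spike-in probes, which moved the median of all probes to -0.13 for TSA, 11 of the 12 tested probes were above zero, with a median of 0.21 over the 12.

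With UHRF1 depletion plus TSA, 6 of the 11 probes, from 4 genes, were called, each higher than in siCONT, and 23.2% of all probes were called in this comparison. All 11 had a log2 fold change above zero, beside 55.5% of all probes tested. The median log2 fold change was 0.60 for the 11 probes and 0.05 for all probes. The called probes carry the names MT1E, MT1F, MT1H and MT1X, and MT1G was called as well. For MT1H this rests on A_33_P3315314, since its other probe was above background on no array. The MT1E probe A_21_P0000671 and the MT1X probe A_33_P3350056 are also assigned to other members, so these calls are not specific to 1 gene.

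Among the members measured in both groups, MT1F had the largest change. Its normalized level stood 1.35 and 1.14 above the siCONT mean on the siUHRF1 + TSA arrays, 0.49 and 0.59 with UHRF1 depletion alone and 0.37 and 0.34 with TSA alone. Neither of the single treatments reached the lower siUHRF1 + TSA array. In the combination its log2 fold change was 1.25 ± 0.11 (SE), or 2.37-fold, with an adjusted p of 0.00127, and the call was kept without any single array. MT1X was the next. Its probe A_33_P3236868 stood 1.10 and 0.77 above the siCONT mean, and 0.15 and 0.03 with UHRF1 depletion alone, giving 0.93 ± 0.13 (adjusted p = 0.00559). Its other probe A_33_P3350056 stood 1.07 and 0.68 above it, giving 0.88 ± 0.15 (adjusted p = 0.0107). The 2 MT1X probes thus gave fold changes of 1.91 and 1.83 here.

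Smaller changes were called for MT1H (A_33_P3315314), at 0.64 ± 0.15 (adjusted p = 0.0264), and for the MT1E probes A_21_P0000671 and A_23_P206724, at 0.48 ± 0.10 and 0.42 ± 0.11 (adjusted p = 0.0199 and 0.0374). MT1L and MT1M missed the threshold narrowly, at 0.60 ± 0.17 and 0.36 ± 0.10 (adjusted p = 0.0508 and 0.0504). MT1B (0.62 ± 0.20), MT1A (0.37 ± 0.22) and MT2A (0.27 ± 0.10) had adjusted p-values of 0.0731, 0.279 and 0.0882. The arrays of this group differed: all 11 probes were higher on the siUHRF1-1 + TSA array than on the siUHRF1-2 + TSA array, by 0.10 to 0.74 (median 0.33), whereas the siCONT + TSA arrays differed by at most 0.11. Without TSA, 3 of the 11 were higher on the siUHRF1-1 array, and the median gap was 0.11. With 1 array for each siRNA and treatment, siRNA and array cannot be told apart. The gaps over all probes are not given here, so nothing particular to the family is read from these. MT1A had the widest gap, with 0.74 above the siCONT mean for siUHRF1-1 and 0.00 for siUHRF1-2. With MT1G counted, 7 probes were called, and 2 with spike-in scaling. Fewer members were called when any single siCONT or siCONT + TSA array was left out, and calls over all probes fell as well.

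**Figure D2:**
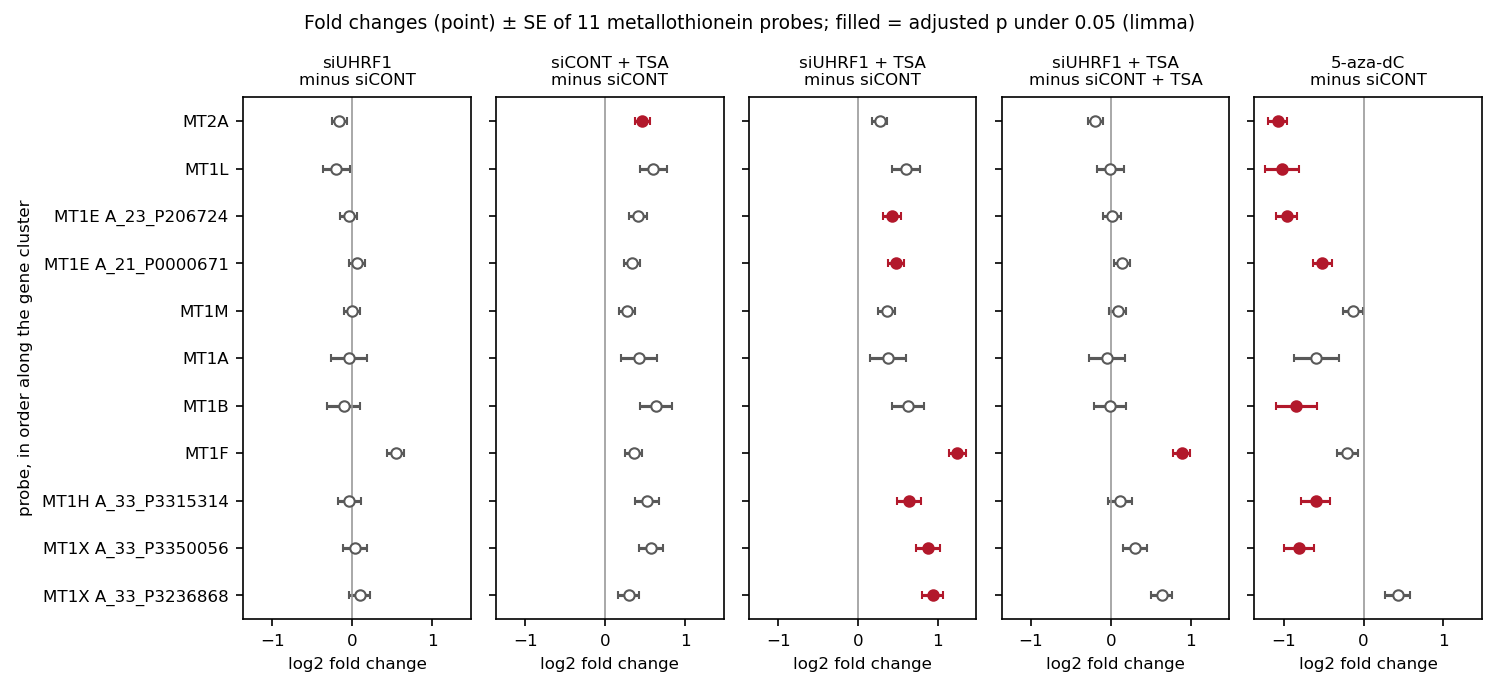
Log2 fold change (horizontal axis) with its SE for 11 metallothionein probes in 5 comparisons, in order along the gene cluster; filled red points had an adjusted p below 0.05 in limma. MT1G is left out because at least 1 group was below background in each comparison; MT1F and MT1X (A_33_P3236868) are the points farthest right in the siUHRF1 + TSA panels, and MT1X (A_33_P3236868) is the one point right of zero for 5-aza-dC.

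When UHRF1 depletion was added to TSA, 1 of the 11 probes, MT1F, was called, higher in siUHRF1 + TSA than in siCONT + TSA, beside 3.54% of all probes, and MT1G was called as well. MT1F differed by 0.89 ± 0.11 (SE; adjusted p = 0.00962), and MT1X (A_33_P3236868) by 0.64 ± 0.13 (adjusted p = 0.0591). The other MT1X probe differed by 0.30 ± 0.15 (adjusted p = 0.379). The remaining 8 measured probes lay between -0.19 ± 0.10 for MT2A and 0.14 ± 0.10 for MT1E (A_21_P0000671). MT1F was not called when either siCONT + TSA array was left out, and calls over all probes fell as well. The effect of UHRF1 depletion with TSA was then compared with its effect without TSA. This difference of effects was called for none of the 11 probes, with 0.379% of all probes called. It was 0.35 ± 0.15 for MT1F and 0.55 ± 0.18 for MT1X (A_33_P3236868), with adjusted p-values of 1.00 and 0.817.

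In UHRF1-depleted cells, 8 of the 11 probes, from 6 genes, were called with TSA, each higher in siUHRF1 + TSA than in siUHRF1, as was MT1G. Of all probes 15.5% were called, and the median log2 fold change was 0.68 for the 11 probes against 0.07. Besides MT1G, MT1X led with 0.84 ± 0.13 and 0.84 ± 0.15 at its 2 probes, followed by MT1L with 0.80 ± 0.17 (adjusted p = 0.0305) and MT1F with 0.71 ± 0.11 (adjusted p = 0.0121). MT2A rose by 0.44 ± 0.10. The probes not called were MT1A (0.41 ± 0.22), MT1B (0.73 ± 0.20) and MT1M (0.36 ± 0.10). With MT1G counted, 9 probes were called. Fewer members were called when any single siCONT, siCONT + TSA, siUHRF1-1 or siUHRF1-1 + TSA array was left out. Calls over all probes fell as well. The number of members called was 4 with quantile normalization, 3 with no filter, 2 with normexp and 1 with spike-in scaling or the compared arrays alone. It was 0 with the t-test that the methods name, once adjusted. The adjustment was added here, and this test called 1 probe in all.

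MT1G was the one member not above background in control cells. The processed signal of its probe was 3.19 and 3.50 on the siCONT arrays, 3.45 and 3.02 with UHRF1 depletion and 3.03 and 3.43 with TSA. It was 30.2 and 33.5 with UHRF1 depletion plus TSA and 177 with 5-aza-dC. The unprocessed spot means were also highest on the 3 arrays above background, with smaller ratios, but the TSA arrays lay above the mock arrays there. They were 29.3 to 36.0 on the 4 mock arrays, 39.6 and 40.8 with TSA, 70.6 and 73.4 with UHRF1 depletion plus TSA and 238 with 5-aza-dC, over local backgrounds of 18 to 22 for the siRNA samples and 35 for 5-aza-dC. The surrogate values that the software gives to dim spots set the fitted fold changes and enter their p-values. Bounds under a set floor are given instead, and the p-values carry no weight of their own. MT1G was at least 2.29-fold higher in siUHRF1 + TSA than in siCONT (adjusted p = 5.49e-05), at least 2.12-fold higher than in siCONT + TSA (adjusted p = 9.26e-05) and at least 2.55-fold higher than in siUHRF1 (adjusted p = 1.18e-04). Leaving out 1 array moved these bounds to between 1.98 and 2.72. Here and below, the dim arrays were put at the lowest signal that any probe above background had on them for each bound. Their own level was used where it was higher. Probes below background can lie above that floor, so the bounds hold only under this setting and for the processed signal.

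The size of the MT1G change depended on the background correction, and under normexp it was smaller than the bounds above. With normexp on the spot means in place of the processed signal, and with 12 spots far below their surroundings left out, MT1G was higher by 0.78 than in siCONT (adjusted p = 0.00249), by 0.43 than in siCONT + TSA (adjusted p = 0.0931) and by 0.84 than in siUHRF1 (adjusted p = 0.00305). The difference of effects was 0.50 (adjusted p = 1.00). With those 12 spots kept, the fitted background of the second siCONT + TSA array fell to -101, whereas it was 2.80 to 16.4 on the other arrays, and MT1G was lower by 0.05 in siUHRF1 + TSA than in siCONT + TSA (adjusted p = 0.913). The detection of MT1G on both siUHRF1 + TSA arrays and on none of the other siRNA arrays comes from the Feature Extraction software. It does not use the normexp fits, and whether it holds under another background correction was not tested.

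**Figure D3:**
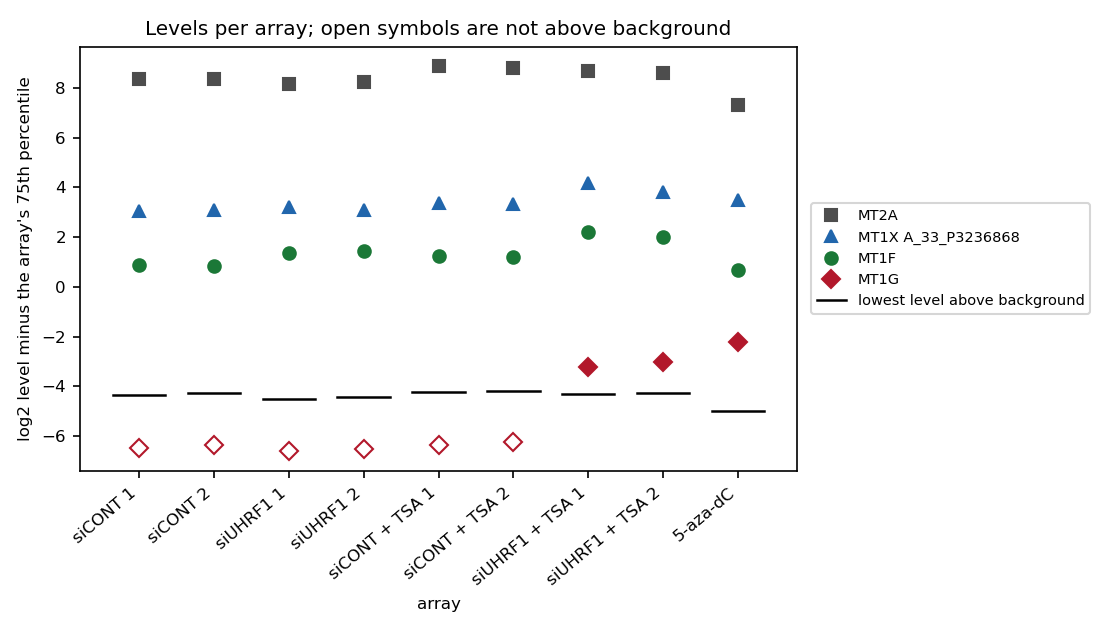
Log2 level relative to the 75th percentile of the array (vertical axis) of MT2A, MT1X (A_33_P3236868), MT1F and MT1G on each array (horizontal axis); open symbols were not above background, and black bars give the lowest level called above background on that array. MT1G rises over the bar on the siUHRF1 + TSA arrays and the 5-aza-dC array, and MT1F and MT1X are highest on the siUHRF1 + TSA arrays.

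Relative to the array's 75th percentile, most of the family was lower with 5-aza-dC, apart from MT1G and the MT1X probe A_33_P3236868. The processed signals of the 11 probes were themselves higher on this array than in siCONT. That of MT2A was 128592, beside 93164 and 93754.5 in siCONT. The 75th percentile signal was 822 on this array and 282 and 285 on the siCONT arrays. Of the 11 probes, 7 were called, each lower than in siCONT, with 48.9% of all 27173 probes tested called. That share includes probes that passed the filter only through the single 5-aza-dC array. The median log2 fold change was -0.60 for the 11 probes and 0.01 for all probes. MT2A fell by 1.07 ± 0.12 (SE; adjusted p = 9.46e-04), MT1L fell by 1.02 ± 0.21 (adjusted p = 0.0104) and MT1B fell by 0.84 ± 0.25 (adjusted p = 0.0367). The MT1E probes fell by 0.96 ± 0.13 and 0.52 ± 0.12, and MT1H (A_33_P3315314) fell by 0.60 ± 0.18. MT1A, MT1F and MT1M were not called, at -0.59 ± 0.28, -0.20 ± 0.13 and -0.13 ± 0.13. These SEs assume that the single 5-aza-dC array varies like the other groups.

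MT1G was at least 4.30-fold higher with 5-aza-dC than in siCONT (adjusted p = 1.15e-05). This bound uses the same floor, and surrogate values of the siCONT arrays enter the p-value. The MT1X probes went opposite ways: the probe A_33_P3350056, which the file also assigns to MT1B, fell by 0.81 ± 0.19 (adjusted p = 0.0153), and A_33_P3236868 was 0.43 ± 0.16 above siCONT (adjusted p = 0.0733). The difference between the 2 probes was not tested. Fewer members were called when either siCONT array was left out, and calls over all probes fell as well. Spike-in scaling turned the sign of MT1X (A_33_P3236868), which was called at -1.48 there, while the median of all probes lay at -1.89 and that of the 12 tested members at -2.50.

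The members did not all follow the same course across the 8 siRNA arrays. Over the 11 probes above background everywhere, the pairwise Pearson correlation was highest for MT1E (A_21_P0000671) and MT1M, at 0.98, and lowest for MT2A and MT1F, at 0.26. That MT1E probe is also assigned to the MT1M transcript, and the other MT1E probe (A_23_P206724) had 0.96 with MT1M. These values describe 8 arrays that share 4 treatments and 1 slide. The mean of those 11 probes was 5.48 and 5.47 on the siCONT arrays, 5.47 and 5.50 on the siUHRF1 arrays, 5.94 and 5.90 on the siCONT + TSA arrays and 6.27 and 5.92 on the siUHRF1 + TSA arrays. The genes outside the family whose course was most like this mean were SCO2 (r = 0.991), SETD4 (0.990), ERCC1 (0.990), KIAA1324 (0.989) and ALDH4A1 (0.988), out of 20493 probes.

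Further metallothionein genes were few on the array. Of 4 found, the pseudogene MT1DP was called with TSA, at least 2.88-fold higher than in siCONT (adjusted p = 0.0175), and with UHRF1 depletion plus TSA, at least 3.19-fold higher (adjusted p = 0.00594). It was below background on both siCONT arrays and passed the filter through the TSA groups, so surrogate values enter these p-values. MT3, the brain form of the family, was 0.12 ± 0.13 above siCONT in the combination (adjusted p = 0.527). MT4 and MT1IP were below background on the siRNA arrays.

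MTF1 had log2 fold changes of 0.25 ± 0.11 with TSA (adjusted p = 0.188) and -0.13 ± 0.11 with UHRF1 depletion plus TSA (adjusted p = 0.425). It was called in none of the 7 comparisons. Of the 6 tested genes in the list of metal response regulators, 1 was called in the combination, USF1 (0.50 ± 0.11), a transcription factor, beside 23.2% of all probes. SLC30A1, the zinc exporter induced by MTF1, was at -0.07 ± 0.15 with TSA and -0.33 ± 0.15 in the combination (adjusted p = 0.156). It was called only on the 5-aza-dC array, where it rose by 1.14 ± 0.18 (adjusted p = 0.00379).

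The counts that follow stand beside 23.2% of all probes called in the combination and 10.4% with TSA, and nothing particular to a list is read from them. In the combination, 1 of 7 tested zinc exporters (SLC30 family) was called higher, SLC30A3, which was above background on 1 of the 2 siCONT arrays and on both siUHRF1 + TSA arrays. Among 12 tested zinc importers (SLC39 family), SLC39A13 rose by 0.50 ± 0.12 and SLC39A14, an importer of zinc and iron, fell by 0.73 ± 0.11. The copper genes had 4 of 11 called higher and 1 lower. The chaperones SCO2 and ATOX1 rose by 1.00 ± 0.13 and 0.82 ± 0.09, and the copper importer SLC31A1 fell by 1.75 ± 0.40. With TSA alone 3 of these 11 genes were called higher, with UHRF1 depletion alone none.

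Of 14 tested oxidative stress genes, 4 were called higher and 1 lower in the combination, again beside 23.2% of all probes. OSGIN1 rose by 0.93 ± 0.17, and the cystine transporter subunit SLC7A11 fell by 1.47 ± 0.13. None of 9 glucocorticoid targets was called higher and 3 were called lower, ERRFI1 by 1.22 ± 0.33, TSC22D3 by 1.04 ± 0.13 and FKBP5 by 0.80 ± 0.12. The list median was -0.02. Among 16 tested neighbours of the cluster on chromosome 16, 3 were called higher and 1 lower, with a list median of -0.04. HERPUD1, a stress gene of the endoplasmic reticulum, fell by 1.44 ± 0.34, CPNE2 rose by 0.76 ± 0.11 and CIAPIN1 by 0.62 ± 0.11.

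Some markers of other lineages were called in the same samples. In the combination, where 23.2% of all probes were called, 4 of 5 tested fibroblast markers were called higher, among them COL1A2, a collagen chain, at least 4.06-fold, PDGFRB at least 2.68-fold and DCN at least 1.23-fold. These 3 passed the filter only through the siUHRF1 + TSA group, where they were high. The endothelial marker VWF was at least 10.5-fold higher. CDH5, the other endothelial marker tested, was above background on all 9 arrays, went the other way and was not called. The 6 fibroblast markers summed to 0.254 to 0.286 in siCONT and 0.940 to 1.17 in siUHRF1 + TSA, in units of the 75th percentile signal of the array, and the 4 endothelial markers to 0.172 to 0.175 and 0.561 to 0.694. COL3A1, PECAM1 and KDR were above background on no array. Of the epithelial markers, KRT19 was at least 4.26-fold higher and KRT18 higher by 0.81 ± 0.13. KRT19 too passed the filter only through the siUHRF1 + TSA group, where it was high. The epithelial list summed to 49.99 to 50.4 in siCONT and 76.8 to 93.9 in siUHRF1 + TSA. No leukocyte marker was called in this comparison, and the list summed to 3.24 to 3.45 and 2.20 to 5.76. The part of these genes in the metallothionein levels was not tested. In bulk RNA, more cells with a transcript and more transcript per cell cannot be told apart.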

How the data were processed

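Total RNA of RKO cells was labelled with Cy3 and hybridized to 9 Agilent arrays in 1 colour. The authors deposited each array as spot intensities from Feature Extraction 10.7.3.1 (10.7 in the submitters' processing notes), with background subtracted and dim spots given surrogate values, and with no normalization between arrays. The deposited value table holds the same intensities, differing by at most 0.497%. The paper's methods name GeneSpring GX for the arrays and, for continuous variables, t-tests or 1-way ANOVA followed by Tukey's test. The normalization is not given in the sources used here.

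From the log2 of each deposited intensity the 75th percentile of that array was subtracted (245 to 338 on the siRNA arrays, 822 for 5-aza-dC). Outlier spots were left out and spots of a probe averaged. limma 3.58.1 in R 4.3.3 was fitted to the 8 siRNA arrays, and to all 9 for 5-aza-dC. Probes were tested that 1 group or more had above background on every array of the group. In the fit for 5-aza-dC its single array was a group, so detection on that array alone admitted a probe. A call is an adjusted p (Benjamini-Hochberg, all tested probes) below 0.05. A spread between 2 arrays per group limits the precision of every value. The procedure was checked on simulated data. Replicate numbers pair the siUHRF1 groups by siRNA (correlation of deviations 0.56), but not the siCONT groups (0.08).

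The members, lists, tests and alternatives were chosen with earlier results of these data known. Named were all members, UHRF1, ACTB, GAPDH, MTF1 and SLC30A1, per list at most 3 called genes of largest change in the combination, and the 5 genes most like the member mean. One gene that this rule names is not reported here. MT3, MT4, MT1IP and markers without a call were named after their values were seen. Probe sequences came from the deposited files (hg19), promoters from RefSeq (GRCh38.p14). Alternatives covered background correction, normalization, the filter, the prior, the test, the threshold, the replicate block and leaving out each array.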

Additional observations from a re-analysis of the deposited data

Results flagged for a closer look

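MT1G was the one member called for a difference between the effect of UHRF1 depletion with TSA and without TSA. The fitted difference of the log2 fold changes was 3.32, over 2 arrays in each of the 4 siRNA groups. Surrogate values of the 6 dim siRNA arrays set this number, and the probe was tested only because of the group where it was high, so it is neither a measured size nor a test. It was 0.50 (adjusted p = 1.00) with normexp background correction and low spots left out.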

How the results depend on the processing

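Counts of called members are given in the order siUHRF1, TSA, combination and UHRF1 depletion under TSA, then TSA in depleted cells, the difference of effects and 5-aza-dC. With MT1G included, the counts were 0, 1, 7, 2, 9, 1 and 8. With normexp background correction the counts that moved were 0 (TSA), 3 (combination), 1 (UHRF1 depletion under TSA), 2 (TSA in depleted cells), 0 (difference) and 4 (5-aza-dC), and the log2 fold change of MT1G for UHRF1 depletion under TSA reversed to -0.0547. With 12 low spots left out, an alternative chosen after seeing the data, they were 4 (TSA), 11 (combination) and 0 (difference). TSA alone gave 0 with quantile normalization, spike-in scaling, no filter on dim probes, a replicate block or a 2-fold limit. It gave 2 with the strict filter or the replicate block within siRNA, 4 with Tukey's test, 7 with a trended and robust prior, 9 at an unadjusted p, 11 with the arrays of the groups compared alone, and 11 and 8 with the methods' t-test before and after adjustment. The combination gave 2 with spike-in scaling or a 2-fold limit, 11 at an unadjusted p and 0 with the adjusted t-test. UHRF1 depletion under TSA gave 1 with the strict filter, the compared arrays alone or a 2-fold limit, and 0 with the adjusted t-test. TSA in depleted cells gave 4 with quantile normalization, 3 with no filter, 5 with the unadjusted t-test, 0 with the adjusted one, and 1 with spike-in scaling, the compared arrays alone or a 2-fold limit. Over all probes the adjusted t-test called 4344 for TSA, 246 for the combination, 1 for TSA in depleted cells and 0 for UHRF1 depletion under TSA. The adjustment was added here and is not stated in the paper's methods. The difference gave 0 with the strict filter, which leaves MT1G out, or the trended prior, and 2 at an unadjusted p. UHRF1 depletion alone gave 1 at an unadjusted p, with the unadjusted t-test or with Tukey's test, and 5-aza-dC gave 3 with a 2-fold limit. Leaving out 1 array gave 0 to 0, 0 to 6, 3 to 9, 1 to 3, 3 to 8, 1 to 1 and 4 to 10. The replicate block changed no other count by over 1.5 times. Calls over all probes moved as well when 1 array was left out. The cause of these changes was not tested. Probes not called were followed only as counts: 63 of 285 values for TSA and 23 of 125 for the combination were called under an alternative. Signal over background limits MT1G and the MT1H probe A_33_P3368313.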
